A study of Mus musculus with 8 samples.

Results

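The genes described here encode the machinery that copies DNA in S phase and supplies it with nucleotides. The 47 genes were listed by symbol and found as rows with exactly that symbol in the authors' deposited table of the comparison, out of 24647 gene symbols there. All 47 had a row, and the 6 with several transcript clusters, each a set of probes on the array, were represented by the cluster with the lowest ID. RNA came from the endometrium, the inner lining of the uterus, of CBA x C57Bl/6 F1 females naturally mated in the night after proestrus, with the tissue scraped off 8 h after mating. In one group the females had mated with Intact Balb/c males, whose seminal fluid reached the tract, and in the other with SVX/VAS Balb/c males, a mating without exposure to seminal fluid. Each of the 2 groups had 4 Affymetrix Mouse Gene 2.0 ST arrays, each array held RNA pooled from 4 females, and 16 females stood behind a group. Females of both groups had therefore mated, no unmated females were part of the comparison, and the labels do not give ages or expand SVX/VAS.

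A replication origin is licensed in G1 when the origin recognition complex, with CDC6 and CDT1, loads the ring-shaped MCM helicase onto DNA. In S phase, CDC45 and the GINS complex switch the helicase on, primase and DNA polymerases alpha, delta and epsilon copy the strands, and the PCNA clamp, loaded by the RFC complex, holds the polymerases in place. Many of these genes are switched on together by E2F transcription factors once cyclin E drives a cell towards S phase. In the mouse uterus, estrogen brings the epithelium into S phase and progesterone blocks that entry, in part by keeping MCM proteins from being loaded.

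The promoters of these genes carried the letters of E2F sites in a larger share than promoters in general. RefSeq promoter windows (GRCm38.p6, 250 bases before to 50 bases after the start) were found for 38 of the 47 genes, and not for Gmnn, Mcm4, Gins1, Gins2, Gins4, Pole, Prim2, Rfc2 and Ccne2. The E2F letters searched were TTTCCCGC, TTTCGCGC, TTTGCCGC and TTTGGCGC on both strands, with overlapping matches counted separately, and 14 of the 38 genes (36.8%) had at least 1 of them, against 3.29% of 17492 protein-coding genes and 2.60% of all 27025 genes with a window. CCAAT, the letters bound by NF-Y, was found on either strand in 23 of the 38 genes (60.5%) and in 42.3% of protein-coding genes. A match is a run of letters and not a measured binding site. Of the 4 windows below, Rrm1 is shown for the smallest p of the 47 genes and Pold2 for the difference of the largest size. Mcm7 and Mcm5, subunits of the same ring, are shown because both hold E2F letters while the groups did not overlap in Mcm7 and overlapped widely in Mcm5. Mcm7 and Pold2 each have a further window, and the one with more of the letters is shown. E2F letters and CCAAT are in capitals.
Mcm7, chr5:138171834-138172133, minus strand: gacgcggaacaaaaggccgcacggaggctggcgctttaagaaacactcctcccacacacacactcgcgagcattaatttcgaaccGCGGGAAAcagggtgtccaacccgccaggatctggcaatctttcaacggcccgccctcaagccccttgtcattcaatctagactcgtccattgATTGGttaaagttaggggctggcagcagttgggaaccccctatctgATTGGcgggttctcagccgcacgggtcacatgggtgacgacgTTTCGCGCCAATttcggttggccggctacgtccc
Mcm5, chr8:75109259-75109558, plus strand: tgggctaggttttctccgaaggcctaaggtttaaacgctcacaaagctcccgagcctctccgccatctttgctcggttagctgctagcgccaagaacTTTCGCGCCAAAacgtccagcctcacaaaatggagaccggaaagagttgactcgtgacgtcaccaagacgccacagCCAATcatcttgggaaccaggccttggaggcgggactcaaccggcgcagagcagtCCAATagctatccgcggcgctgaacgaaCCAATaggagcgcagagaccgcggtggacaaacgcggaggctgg
Rrm1, chr7:102441445-102441744, plus strand: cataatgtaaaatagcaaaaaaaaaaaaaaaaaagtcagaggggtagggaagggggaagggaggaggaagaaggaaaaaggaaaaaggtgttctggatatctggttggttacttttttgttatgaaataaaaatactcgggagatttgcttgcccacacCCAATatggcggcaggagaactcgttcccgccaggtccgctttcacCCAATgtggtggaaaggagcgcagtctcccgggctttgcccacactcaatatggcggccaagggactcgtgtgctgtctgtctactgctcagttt
Pold2, chr11:5878207-5878506, minus strand: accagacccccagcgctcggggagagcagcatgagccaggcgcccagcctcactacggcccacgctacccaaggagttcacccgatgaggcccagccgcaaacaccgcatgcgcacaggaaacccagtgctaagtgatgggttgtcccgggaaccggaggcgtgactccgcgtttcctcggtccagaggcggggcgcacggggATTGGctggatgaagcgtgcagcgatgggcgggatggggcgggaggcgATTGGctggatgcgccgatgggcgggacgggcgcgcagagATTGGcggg
In the Mcm7 window the E2F letters and a CCAAT near the start overlap, and in the Mcm5 window the capitals before the first CCAAT hold a match on each strand. The Rrm1 and Pold2 windows hold CCAAT but none of the E2F letters. Among the genes with a window, the median log2 difference between the matings was 0.06 for the 14 with E2F letters and 0.05 for the 24 without.

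The replication genes went both ways between the matings, and none passed the adjusted test. The median log2 difference (Intact minus SVX/VAS) over the 47 genes was 0.04, against 0.01 over the 27037 clusters with 1 symbol, with 18 genes lower and 29 higher after Intact mating. No gene of the 47 passed an adjusted p of 0.05 in limma's moderated test with Benjamini-Hochberg adjustment over all clusters, where 0.0822% of clusters did (34 of 41345; 0.0314% lower and 0.0508% higher). At an unadjusted p under 0.05 in limma, 4 were lower (Rrm1, Rfc1, Mcm7 and Lig1) and 1 was higher (Pold2), beside 6.78% and 5.13% of all clusters, and 6.47% and 5.61% of the clusters with 1 symbol. These 5 genes are 10.6% of the list and 11.9% of all clusters (12.1% of those with 1 symbol) passed in either direction, so the share among replication genes was near that of all clusters. The methods' t-test also gave 5 genes at an unadjusted p under 0.05, 3 of them lower, and 0 after adjustment. By that test 4960 of 41345 clusters passed unadjusted and 10 after adjustment. The submitters called a cluster changed when it moved 1.5-fold or more at an unadjusted p under 0.05 in their own test, and by these criteria 0 of the 47 genes qualified, beside 1.86% of all clusters (1.12% lower and 0.733% higher). The values of single pools moved these counts: the 4 lower genes became 2 without Intact replicate 2 or without SVX/VAS replicate 1, and 1 without SVX/VAS replicate 2. In those sets, in that order, 4340, 4218 and 4192 clusters passed in either direction, against 4925 with all pools. The median over the genes was 0.09 without Intact replicate 2 and -0.02 without Intact replicate 3, so its sign rests on which pools are counted.

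**Figure D1:**
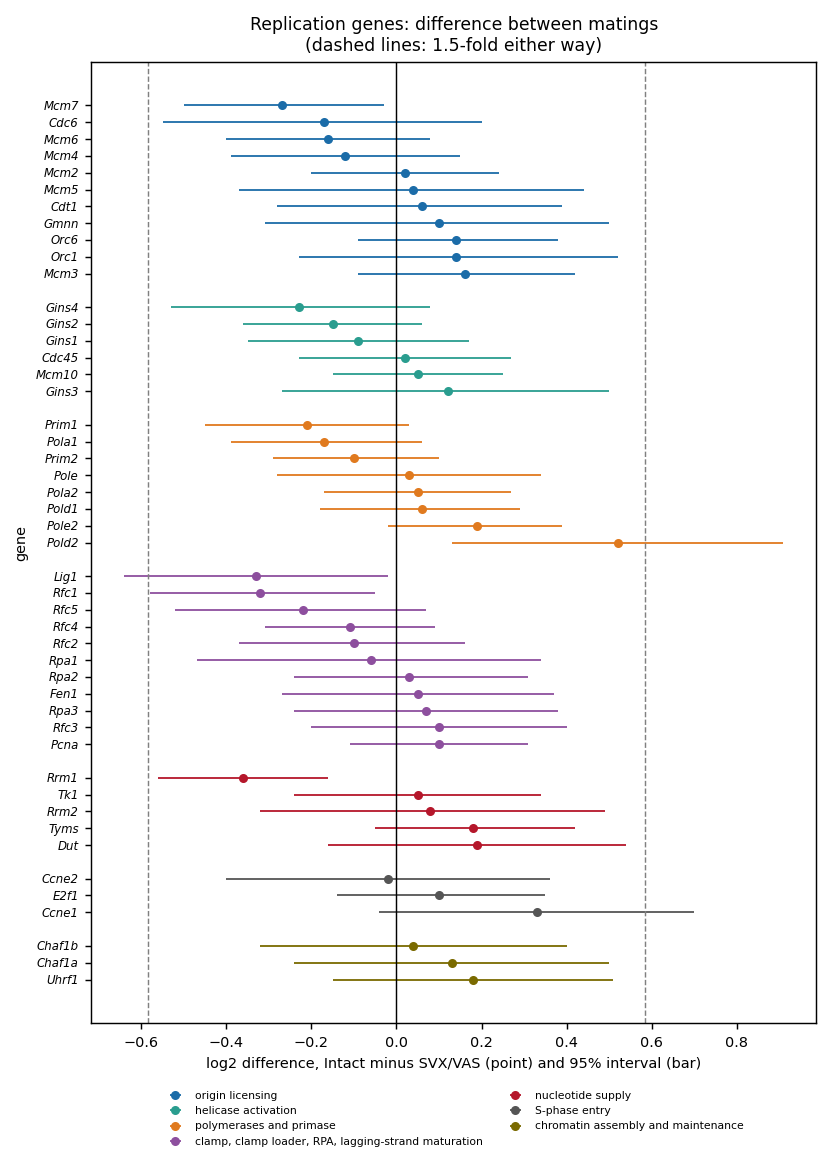
Log2 difference of each replication gene, Intact minus SVX/VAS, with its 95% interval from limma (x axis), for the 47 genes grouped and coloured by role (y axis). Of the 47 intervals, 44 lie inside the dashed lines at 1.5-fold, and those of Pold2, Lig1 and Ccne1 reach past one of them.

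The precision bounds what could have been missed, but less so in dim genes. For 44 of the 47 genes the 95% interval of the difference lay within 1.5-fold either way, as it did for 68.4% of all clusters. The exceptions were Pold2 (interval 0.13 to 0.91 on the log2 scale), Lig1 (-0.64 to -0.02) and Ccne1 (-0.04 to 0.70). The mean values of 35 genes lay above a background proxy, the 95th percentile of 1128 olfactory receptor clusters (5.29 on the log2 scale), and 12 did not. Those 12 were Cdc6, Orc1, Cdc45, Gins1, Pole, Pole2, Prim1, Rpa1, Fen1, Rrm2, Ccne2 and Chaf1a. In such genes a difference on an array can be compressed by background. All 12 were among the 44 genes with intervals within 1.5-fold, so for them the interval bounds only the measured difference. The genes at an unadjusted p under 0.05 in limma (Rrm1, Rfc1, Mcm7, Lig1 and Pold2) were among the 35. Of the 21398 clusters above the proxy, fitted alone in limma, 3916 passed that threshold. In whole tissue, fewer cells of a type and less RNA per cell cannot be told apart, and neither can a change in the share of cells in S phase.

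Origin licensing genes were split around 0. Of the 11, 4 were lower and 7 higher after Intact mating, with differences from -0.27 to 0.16 and adjusted p-values of 0.35 or more in limma. The replicative helicase is a ring of 6 different proteins, encoded by Mcm2 to Mcm7. Of its genes, 3 were lower and 3 higher, but Mcm2 and Mcm5, both higher, changed sign with some pools left out. Mcm7 (cluster 17454226) gave log2 values of 6.60, 6.53, 6.77 and 6.75 in Intact pools 1 to 4 and 7.00, 7.05, 6.85 and 6.80 in SVX/VAS pools 1 to 4. All Intact pools lay below all SVX/VAS pools, by a narrow gap between Intact replicate 3 and SVX/VAS replicate 4. The mean was 6.66 ± 0.12 (SD, n = 4) against 6.93 ± 0.12 (SD, n = 4), 1.20-fold lower, with an adjusted p of 0.35 in limma. Mcm6 (log2 difference -0.16, SE 0.11) and Mcm4 (-0.12, SE 0.12) leaned the same way. Mcm2, the subunit whose protein is widely used as a proliferation marker, differed by 0.02 (SE 0.10), with values from 6.18 to 6.42 after Intact and from 6.12 to 6.39 after SVX/VAS mating. Mcm3 differed by 0.16 (SE 0.11) and Mcm5 by 0.04 (SE 0.18).

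The factors that load the ring, and the brake on them, showed values of the same order. Cdc6, the loading ATPase, differed by -0.17 (SE 0.17) and Cdt1, its partner, by 0.06 (SE 0.15). Gmnn encodes geminin, which blocks CDT1 so that an origin fires once per cycle, and differed by 0.10 (SE 0.18). The origin recognition subunits Orc1 and Orc6 both differed by 0.14 (SE 0.16 and 0.10). In each of these genes the groups overlapped.

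Helicase activation genes had 3 lower and 3 higher members out of 6, from -0.23 to 0.12, and 0 at an unadjusted p under 0.05 in limma. Gins4 was lowest among them, at 7.28 ± 0.21 (SD, n = 4) after Intact and 7.51 ± 0.18 (SD, n = 4) after SVX/VAS mating, with an adjusted p of 0.555 in limma. The other GINS subunits, which form 1 complex, were Gins2 at -0.15 (SE 0.09), Gins1 at -0.09 (SE 0.11) and Gins3 at 0.12 (SE 0.17). Cdc45, which joins GINS and the MCM ring in the active helicase, differed by 0.02 (SE 0.11), and Mcm10, needed to start unwinding, by 0.05 (SE 0.09).

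Among the 8 polymerase and primase genes the difference with the largest size in the whole list was found. Pold2 (cluster 17260221), the accessory subunit of polymerase delta, gave 6.59, 6.33, 6.30 and 6.92 in Intact pools 1 to 4 and 5.79, 5.95, 5.96 and 6.37 in SVX/VAS pools 1 to 4. The groups overlapped through SVX/VAS replicate 4, which lay above Intact replicates 2 and 3. The means were 6.53 ± 0.29 (SD, n = 4) and 6.02 ± 0.25 (SD, n = 4), 1.43-fold higher after Intact mating, with an adjusted p of 0.277 in limma. Left without Intact replicate 2, Intact replicate 3 or SVX/VAS replicate 4, Pold2 met the submitters' criteria. Pold1, the catalytic subunit of the same polymerase, differed by 0.06 (SE 0.10, interval -0.18 to 0.29), and the gap between the pair was not tested.

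Polymerase epsilon copies the leading strand. Its second subunit Pole2 (cluster 17281506) gave 5.11, 4.87, 5.02 and 4.96 in Intact pools 1 to 4 and 4.78, 4.82, 4.74 and 4.87 in SVX/VAS pools 1 to 4. To more digits Intact replicate 2 lay just above SVX/VAS replicate 4, so the groups did not overlap, and the difference was 0.19 (SE 0.09, adjusted p = 0.458 in limma) at a mean below the background proxy. Its catalytic partner Pole differed by 0.03 (SE 0.14). Primase and polymerase alpha, which lay down the primers, leaned lower: Prim1 by -0.21 (SE 0.11), Pola1 by -0.17 (SE 0.10) and Prim2 by -0.10 (SE 0.09), with Pola2 at 0.05 (SE 0.10). In Prim1 the SVX/VAS pools lay close together, from 5.12 to 5.22, while Intact replicate 1 reached 5.16 and Intact replicate 2 lay at 4.72.

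Pcna, the sliding clamp, gave 8.15, 8.07, 8.24 and 7.94 in Intact pools 1 to 4 and 8.05, 8.03, 7.92 and 8.01 in SVX/VAS pools 1 to 4. The ranges overlapped, and the difference was 0.10 (SE 0.09). Rfc1 (cluster 17448264), the large subunit of the clamp loader, gave 6.80, 7.21, 7.01 and 7.12 in Intact pools 1 to 4 and 7.23, 7.49, 7.28 and 7.41 in SVX/VAS pools 1 to 4. Every Intact pool lay below every SVX/VAS pool, Intact replicate 2 by little, for a difference of -0.32 (SE 0.12, 1.24-fold lower, adjusted p = 0.323 in limma). Of the small subunits, Rfc5 (-0.22), Rfc4 (-0.11) and Rfc2 (-0.10) were on the same side and Rfc3 (0.10) was not, all with overlapping groups.

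Genes for single-strand binding and for joining lagging-strand fragments had differences of both signs. Lig1 (cluster 17473856), the ligase that seals Okazaki fragments, gave 6.66, 6.32, 6.78 and 6.44 in Intact pools 1 to 4 and 7.15, 6.86, 6.76 and 6.76 in SVX/VAS pools 1 to 4. Intact replicate 3 lay within the SVX/VAS values, and the difference was -0.33 (SE 0.14, 1.26-fold lower, adjusted p = 0.384 in limma). It was -0.24 without SVX/VAS replicate 1, the highest pool. Fen1, the nuclease that trims the fragments before LIG1 joins them, differed by 0.05 (SE 0.14). Its other cluster differed by 0.09 (SE 0.19), and both lay below the background proxy. The RPA genes, whose 3 products coat single-stranded DNA, differed by -0.06 for Rpa1, 0.03 for Rpa2 and 0.07 for Rpa3. The Rpa1 cluster with the lowest ID lay below the background proxy, and its other cluster, with means of 5.82 and 5.84, differed by -0.02 (SE 0.09).

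Nucleotide supply held the gene with the smallest p of the 47. Rrm1 (cluster 17481102) encodes the large subunit of ribonucleotide reductase, which turns ribonucleotides into the deoxyribonucleotides of DNA. It gave 6.73, 6.72, 6.91 and 6.80 in Intact pools 1 to 4 and 7.12, 7.23, 7.09 and 7.15 in SVX/VAS pools 1 to 4. The groups were clearly apart, with the highest Intact pool below the lowest SVX/VAS pool. The means were 6.79 ± 0.09 (SD, n = 4) and 7.15 ± 0.06 (SD, n = 4), a difference of -0.36 (95% interval -0.56 to -0.16, 1.28-fold lower) with an unadjusted p of 0.00268 and an adjusted p of 0.162 in limma. Leaving out each pool in turn gave differences from -0.40 to -0.33 and adjusted p-values from 0.157 to 0.33 in limma. The lowest adjusted p of any of the 47 genes under any alternative was 0.0619, for Rrm1 with only clusters above the background proxy in limma.

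Rrm2 encodes the small subunit of the same enzyme, the one made in S phase. It gave 5.53 in Intact pool 1, 5.69 in pool 3 and 4.93 in pool 4, with pool 2 just above pool 4, and 5.09, 5.16, 5.31 and 5.24 in SVX/VAS pools 1 to 4. The SVX/VAS pools all lay between the 2 higher and the 2 lower Intact pools, and the mean difference was 0.08 (SE 0.18). Thymidylate synthase Tyms, which makes dTMP, was at 0.18 (SE 0.10), thymidine kinase Tk1 at 0.05 (SE 0.13) and the dUTPase gene Dut, which keeps uracil out of DNA, at 0.19 (SE 0.15). The other Dut cluster, at means of 3.09 and 3.42 far below the background proxy, differed by -0.33 (SE 0.16), opposite in sign to the first.

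**Figure D2:**
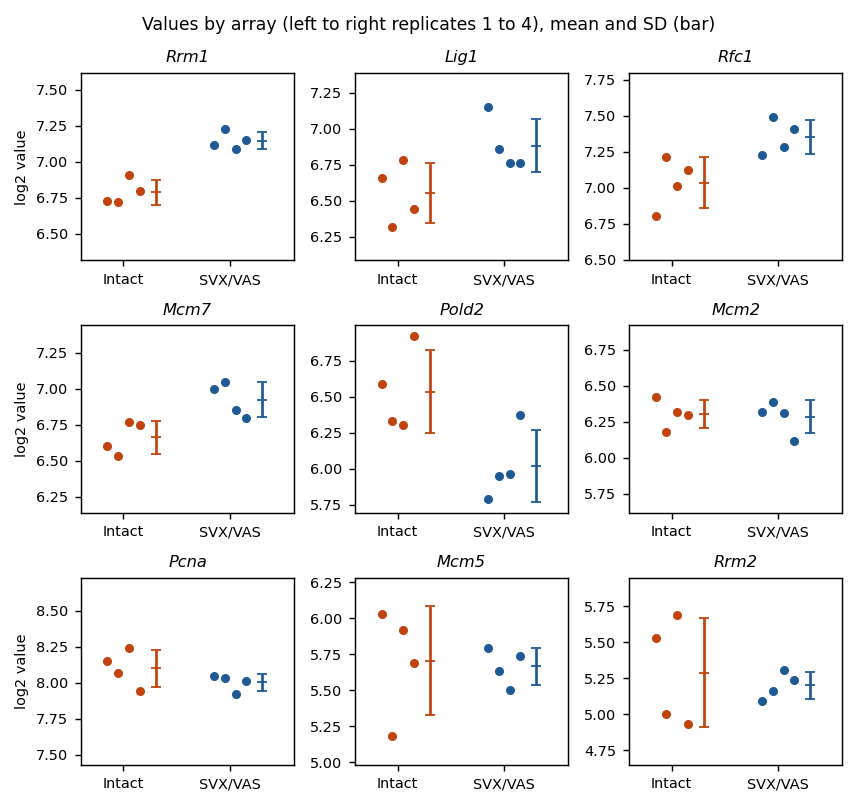
Log2 values by array (y axis, each panel spanning the same range) for 9 replication genes after Intact and SVX/VAS mating (x axis), points running from replicate 1 to 4 and bars showing the mean and SD of 4 pools. Rrm1, Rfc1 and Mcm7 do not overlap between the groups, whereas in Mcm5 and Rrm2 the Intact pools spread on both sides of the SVX/VAS pools.

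Of the genes of S-phase entry and of chromatin assembly behind the fork, all but Ccne2 had higher means after Intact mating. None had an unadjusted p under 0.05 in limma, and Ccne2 and Chaf1b changed sign with some pools left out. Ccne1, cyclin E1, gave 5.96, 5.57, 6.03 and 5.50 in Intact pools 1 to 4 and 5.66, 5.35, 5.59 and 5.15 in SVX/VAS pools 1 to 4. The groups overlapped, and the difference was 0.33 (SE 0.16, adjusted p = 0.469 in limma). Ccne2, cyclin E2, differed by -0.02 (SE 0.17) and E2f1, which encodes an activating E2F, by 0.10 (SE 0.11). The 3 chromatin genes were at 0.18 for Uhrf1, which brings the maintenance DNA methyltransferase to new DNA, 0.13 for Chaf1a and 0.04 for Chaf1b, both subunits of the histone chaperone CAF-1, with SEs of 0.14 to 0.16.

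In all, 4 of the 47 genes (8.51%) had groups that did not overlap, Rrm1, Rfc1 and Mcm7 with Intact below and Pole2 with Intact above, beside 8.17% of all clusters (4.81% with Intact below and 3.37% with Intact above). With 1 pool left out, the number ran from 5 to 8 over the 8 sets, as fewer pools overlap less easily. The share of all clusters was not taken in those sets, so 8.17% is no background for them.

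The replication genes differed together between pools of the Intact group. Each gene's value was taken relative to its own mean over the 8 arrays. In Intact replicate 2 the median of these deviations was -0.12 and 38 of 47 genes lay below their own mean, while 49.4% of all clusters with 1 symbol lay above theirs. In Intact replicate 3 the median was 0.11 with 36 genes above their mean, and in Intact replicate 1 it was 0.07 with 31 above. Intact replicate 4 stood at -0.06, and the SVX/VAS pools at 0.03, -0.03, -0.02 and 0.01. Intact replicate 2 was the lowest of the 8 arrays for 18 of the 47 genes and the highest for 0, whereas Intact replicates 1 and 3 were the highest for 10 and 11 genes. The deviations over all clusters with 1 symbol had medians between -0.01 and 0.00 on every array. The pools were not assigned to further groups, and these values carry no test.

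**Figure D3:**
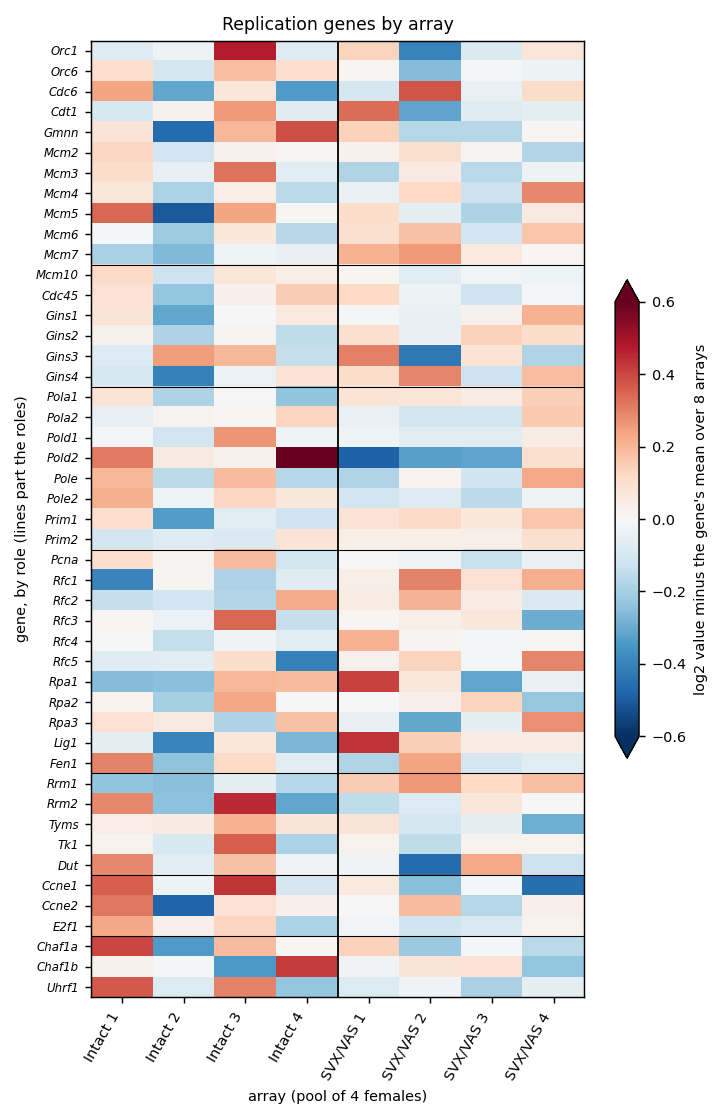
Deviation of each replication gene (rows, parted by role) from its own mean over 8 arrays, on the log2 scale (colour, capped at 0.6 either way), for each pool (columns). Intact replicate 2 is below the mean in 38 of 47 genes and Intact replicate 3 above it in 36, while no column block separates Intact from SVX/VAS pools.

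The spread was plain in single genes. Mcm5 gave 6.03, 5.18, 5.92 and 5.69 in Intact pools 1 to 4, a range of 0.85, and 5.79, 5.63, 5.50 and 5.74 in SVX/VAS pools 1 to 4, a range of 0.29. Gmnn also spanned 0.85 within Intact, with 5.07 in replicate 2 and 5.92 in replicate 4, and 0.31 within SVX/VAS pools. Uhrf1 gave 6.34, 5.89, 6.27 and 5.74 in Intact pools 1 to 4, a range of 0.60, against 0.17 within SVX/VAS pools. Over the 47 genes the median SD was 0.18 within Intact and 0.13 within SVX/VAS pools, and 34 genes (72.3%) varied more within Intact, where 61.5% of all clusters with 1 symbol did, at median SDs of 0.17 and 0.14. Cell type markers also differed between pools, in both groups. As medians against their own means, smooth muscle markers ran from -0.70 to 0.48 over the Intact and from -0.45 to 0.23 over the SVX/VAS pools. Stromal markers ran from -0.40 to 0.25 and from -0.22 to 0.32, endothelial ones from -0.47 to 0.33 and from -0.05 to 0.35, macrophage ones from -0.37 to 0.33 and from -0.18 to 0.21, and epithelial ones from -0.19 to 0.21 and from -0.12 to 0.10. In Intact replicate 2, smooth muscle markers stood at 0.42, macrophage markers at 0.33 and neutrophil markers at 0.23. In Intact replicate 3, endothelial markers stood at 0.33, stromal markers at 0.25 and epithelial markers at -0.19. Their part in the spread of the replication genes was not tested.

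**Figure D4:**
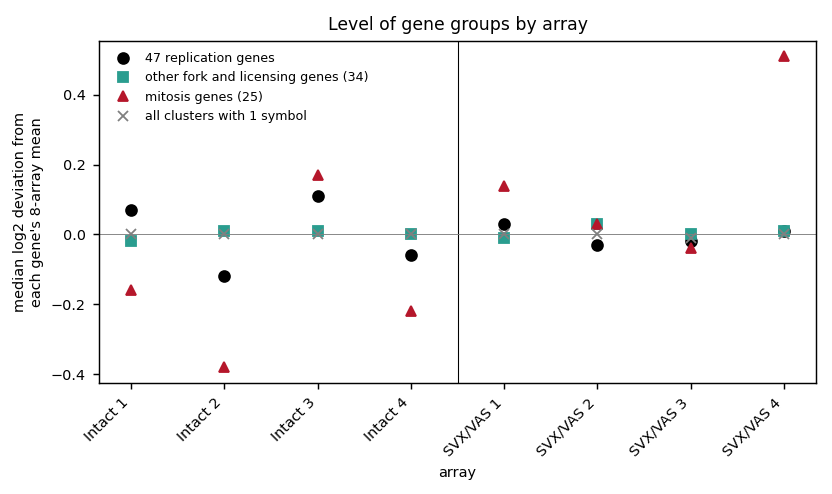
Median log2 deviation from each gene's 8-array mean (y axis) on each array (x axis) for the replication genes, 34 other fork and licensing genes, 25 mitosis genes and all clusters with 1 symbol. Replication genes run from -0.12 to 0.11, the other fork genes stay between -0.02 and 0.03, and mitosis genes reach from -0.38 in Intact replicate 2 to 0.51 in SVX/VAS replicate 4.

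Genes next to these in the cell cycle were described from 5 further lists, whose counts stand beside the 11.9% of all clusters (6.78% lower and 5.13% higher) at an unadjusted p under 0.05 in limma. In turn, 24 of 34, 11 of 12, 30 of 33, 20 of 22 and 18 of 25 genes lay above the background proxy. Of the 21398 clusters above it, fitted alone in limma, 3916 passed that threshold, a larger share than over all clusters. Of 34 other fork and licensing genes, 3 were lower and 2 higher at that threshold (14.7%), with a median of -0.01. The 3 lower genes became 0 without SVX/VAS replicate 1, where 4218 of 41345 clusters passed in either direction. The median was 0.02 without Intact replicate 3. Cdc7, the kinase that fires licensed origins, was 5.37, 5.42, 5.27 and 5.38 in Intact pools 1 to 4 against 4.99, 5.20, 5.06 and 5.08 in SVX/VAS pools 1 to 4, a difference of 0.27 (SE 0.09, adjusted p = 0.259 in limma) with no overlap, at a mean below the background proxy. Groups did not overlap in 4 of the 34 genes (11.8%), beside 8.17% of all clusters. Rnaseh2a and Rnaseh2b, subunits of the nuclease that removes ribonucleotides from DNA, were at -0.29 and -0.33. Of 12 other chromatin assembly genes, 3 were lower and 0 higher at that threshold (25%), with a median of -0.05. They were Hat1 (-0.36) and Rbbp7 (-0.28), which together form a histone acetyltransferase for new histones, and the histone chaperone Asf1a (-0.45), with adjusted p-values from 0.185 to 0.209 in limma and, in each, groups that did not overlap, as was so with Intact below for 4.81% of all clusters.

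Nucleotide synthesis beyond the list went both ways, with 4 of 33 lower and 4 higher at an unadjusted p under 0.05 in limma (24.2%, beside 11.9% of all clusters) and a median of 0.03. Ctps2, a CTP synthase, was at -0.39 and Paics, a purine synthesis enzyme, at -0.38, whereas Atic, which catalyses the closing steps of the same purine pathway, was at 0.39. In each of the 3 genes the groups did not overlap, and the adjusted p-values in limma were 0.149, 0.152 and 0.173. Over the 33 genes, 5 (15.2%) had groups that did not overlap, beside 8.17% of all clusters. Of 22 E2F and pocket protein genes, 2 were lower and 4 higher (27.3%, beside 11.9% of all clusters, dim ones included), with a median of 0.02. Rbl2, the pocket protein p130 that holds E2F targets silent in resting cells, gave 7.51, 7.57, 7.74 and 7.51 in Intact pools 1 to 4 and 7.94, 8.16, 8.01 and 8.07 in SVX/VAS pools 1 to 4. That is a difference of -0.46 (SE 0.10, 1.38-fold lower), with groups well apart and an adjusted p of 0.12 in limma. Of the 22 genes, 6 (27.3%) had groups that did not overlap, beside 8.17% of all clusters. E2f4, the repressor E2F that pairs with pocket proteins, was at 0.38 (adjusted p = 0.188) and Fbxw7, which targets cyclin E for breakdown, at -0.41 (adjusted p = 0.219) in limma. No gene of these 5 lists passed the adjusted threshold in limma.

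Mitosis genes had a different median from the replication genes. Of 25, 24 were lower after Intact mating with a median of -0.31, but 4 (16%) were lower at an unadjusted p under 0.05 in limma, beside 6.78% of all clusters, and 0 passed after adjustment. That number was 13 without Intact replicate 3, where 5045 of 41345 clusters passed in either direction. It was 2 without Intact replicate 1 (4212 clusters) or without SVX/VAS replicate 4 (4256 clusters). The share of all clusters that were lower was not taken in those sets. The median stayed between -0.38 and -0.21 over the 8 sets with a pool left out. Ccnb1, cyclin B1, which starts mitosis, was at -0.71 (SE 0.17, adjusted p = 0.164), the kinesin Cenpe at -0.47 (SE 0.15, adjusted p = 0.25) and the kinase Aurkb at -0.33 (SE 0.13, adjusted p = 0.362) in limma, each with groups that did not overlap. These 3 were the only such genes of the 25 (12%), beside 4.81% of all clusters with Intact below. Ccnb1 lay below the background proxy. The list was chosen with a lower value of cell cycle genes already known from these data, and the gap between its median and that of the replication genes was not tested.

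**Figure D5:**
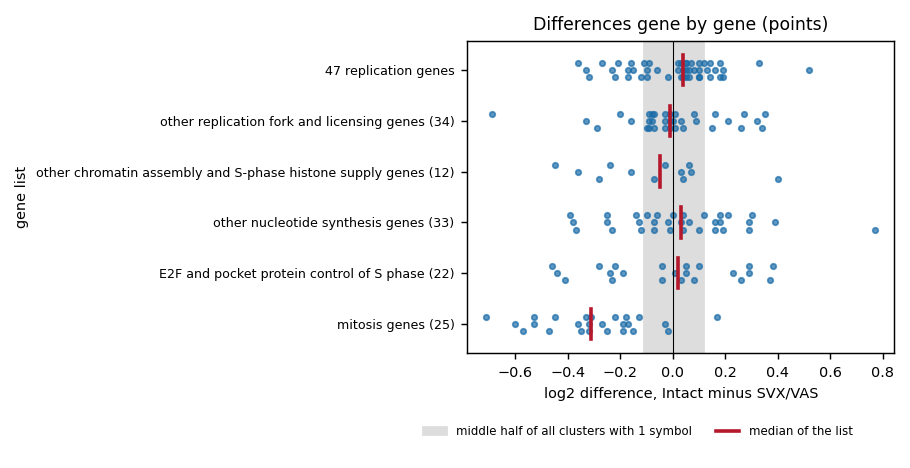
Log2 difference between the matings (x axis) for each gene (points) of the 47 replication genes and 5 further lists (y axis), with the median of each list as a red bar and the range between the quartiles of all clusters with 1 symbol shaded. The medians are 0.04 for replication genes and -0.31 for mitosis genes, and from -0.05 to 0.03 for the other 4 lists.

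The tissue carried epithelial and stromal markers, and smooth muscle markers as well. All 13 epithelial and 13 stromal markers lay above the background proxy, and so did 7 of 8 smooth muscle markers, 9 of 10 macrophage and 8 of 9 endothelial ones, but only 4 of 12 neutrophil ones. None of 10 lymphocyte or 5 measured red cell markers did. Of 8 sperm markers, 2 lay above it, and 5 were higher and 3 lower after Intact mating. Prm1, below the proxy, was at 0.39, the only sperm marker at an unadjusted p under 0.05 in limma. That is 12.5%, beside 11.9% of all clusters. It was also the only sperm marker with groups that did not overlap, beside 8.17% of all clusters. The summed level of the neutrophil list, as a mean over its 12 genes, ran from 5.45 to 5.70 in Intact and from 5.26 to 5.40 in SVX/VAS pools, and 11 of 12 were higher after Intact mating, among them Mmp8 and Camp by 0.01 or less. At an unadjusted p under 0.05 in limma, 3 were higher and 1 was lower (33.3%), beside 5.13% and 6.78% of all clusters. Groups did not overlap in 3 of the 12 neutrophil markers (25%), beside 8.17% of all clusters. Stfa2l1, far below the background proxy, was at 0.40, and Ly6g, above it, at -0.37. Stromal markers were lower in 12 of 13 cases, at levels from 7.53 to 8.16 in Intact and from 7.80 to 8.33 in SVX/VAS pools, and Esr1, the estrogen receptor gene, was at -0.38 (adjusted p = 0.15 in limma). Epithelial markers overlapped, from 9.35 to 9.77 and from 9.44 to 9.68, with 7 of 13 higher and a median difference of 0.04. Krt18 was at -0.41 and Cldn7 at 0.33, the 1 lower and 1 higher at an unadjusted p under 0.05 in limma. They were 15.4% of the 13 epithelial markers, beside 11.9% of all clusters in either direction. What these shifts add to the differences of single replication genes was not tested.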

How the data were processed

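Endometrial RNA from 4 Intact and 4 SVX/VAS pools was hybridised to Affymetrix Mouse Gene 2.0 ST arrays. The labels gave each pool's group and number. The authors' deposited log2 values per array come from RMA background correction, GC content correction and mean probe summarization in Partek Genomics Suite 6.6, per the series text and the submitters' processing notes. Those notes also name Affymetrix Expression Console. How arrays were scaled to each other was not given in the sources used here. Array medians lay between 5.35 and 5.41. Any such scaling would remove a shift shared by most clusters.

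The authors' deposited table of the comparison holds an unadjusted p-value and an Intact over SVX/VAS ratio, and the remaining score columns deposited there are a signed fold change, an F statistic and sums of squares, per the file headers. All 41345 cluster IDs occur in both tables. Differences recomputed from the values per array matched the log2 of the deposited ratio to 6e-05 and the deposited p to a relative 0.0034, which settles the log base, direction and naming of rows.

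A linear model with empirical Bayes moderation was fitted over all clusters (limma 3.58.1, R 4.3.3, 3.03 prior degrees of freedom), with Benjamini-Hochberg adjustment and a threshold of 0.05. The fit was tested on simulated data. The methods' t-test, the submitters' criteria (at least 1.5-fold and unadjusted p under 0.05), other moderation, array weights, quantile normalization, median centring, a filter on dim clusters, adjustment over clusters with 1 symbol, the replicate number as a block, each pool left out and another cluster per gene were alternatives. Deviations of same-numbered pools correlated at 0.07, 0.03, -0.02 and -0.03, so the numbers were not taken to pair the pools. No detection calls were used. The number of arrays limits the precision. The p-values set the difference between groups against the spread between pools of 4 females, not between single females. The genes, the 5 pathway lists and the 9 marker lists were chosen with earlier results of these data known. All 47 genes could be named, and of each further list called genes or else up to 3 (pathways) or 2 (markers) with the smallest p. Pcna, Mcm2, Mcm5 and other genes of the 47 given pool by pool, and the medians of lists with a pool left out, were chosen after the values were seen.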

Additional observations from a re-analysis of the deposited data

Results flagged for a closer look

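In 7 of the 94 sets of 4 pools examined (47 genes in 2 groups, 7.45%), 1 pool stood apart from the other three by Dixon's test at its 95% critical value of 0.829 for the gap over the range. Chance alone flags about 1 in 20 such sets. Orc1 in Intact replicate 3 was 5.16, above the other three at 4.61 to 4.66. For Orc6, SVX/VAS replicate 2 gave 5.84, below the other three at 6.07 to 6.11. Prim2 in SVX/VAS replicate 4 was 6.28, above the other three at 6.22. For Rfc2, Intact replicate 4 gave 7.10, above the other three at 6.70 to 6.76. Rfc3 in SVX/VAS replicate 4 was 5.09, below the other three at 5.40 to 5.45. For Rfc4, SVX/VAS replicate 1 gave 5.53, above the other three at 5.31 to 5.34. Tk1 in SVX/VAS replicate 2 was 5.99, below the other three at 6.16. Values are on the log2 scale. The gap was small in absolute size for Prim2 and Tk1, where the other three pools lay almost on one value. The flags were spread over 5 of the 8 pools.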

How the results depend on the processing

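No replication gene passed the adjusted threshold under any of the 18 alternatives, and 29 of the 47 kept the sign of their difference under every one run for them. The filter on dim clusters gave no value for the 12 genes not above the background proxy, and the cluster with the highest mean was another than the one used only for Rpa1 and Rpa3. The other 18 changed sign with a pool left out and with no other alternative, all from differences of at most 0.12, and their ranges over the 8 sets with a pool left out were Cdt1 (-0.04 to 0.18), Gmnn (-0.01 to 0.27), Mcm2 (-0.03 to 0.06), Mcm5 (-0.07 to 0.21), Cdc45 (-0.03 to 0.10), Gins1 (-0.13 to 0.00), Gins3 (-0.01 to 0.23), Pold1 (-0.02 to 0.11), Pole (-0.03 to 0.11), Rfc3 (0.00 to 0.16), Rpa1 (-0.18 to 0.06), Rpa2 (-0.04 to 0.10), Rpa3 (-0.02 to 0.17), Fen1 (-0.04 to 0.14), Rrm2 (-0.05 to 0.20), Tk1 (-0.06 to 0.12), Ccne2 (-0.13 to 0.14) and Chaf1b (-0.09 to 0.17). Over those sets the median of the 47 genes ran from -0.02 (without Intact replicate 3) to 0.09 (without Intact replicate 2), the number lower at an unadjusted p under 0.05 from 1 to 5, the number past the submitters' criteria from 0 to 1 (Pold2) and the number with groups that did not overlap from 5 to 8. The share of all clusters with groups that did not overlap was not taken in those sets. The number of clusters called over the whole array moved far more than the counts of the 47 genes. It was 34 by limma, 10 by the methods' t-test and 10 from the authors' deposited p-values, 173 with an intensity trend and robust prior, 77 with array weights, 54 after quantile normalization, 336 among clusters above the background proxy and 74 when adjusted over clusters with 1 symbol. With a pool left out it ran from 2 (without Intact replicate 1, SVX/VAS replicate 3 or SVX/VAS replicate 4) to 50 (without Intact replicate 3), and it was 3, 4, 9 and 21 without SVX/VAS replicate 1, Intact replicate 2, SVX/VAS replicate 2 and Intact replicate 4. With the replicate number as a block, limma called 0 clusters, with 4620 at an unadjusted p under 0.05. The labels give no shared source for equal numbers, and not every pool correlated best with its own number, so the block was not taken as a pairing. Whether equal numbers shared a source cannot be told from the labels or these correlations. Fewer clusters tested and fewer pools account for part of these moves by construction, and the cause of the rest was not tested. Depth cannot be judged without detection calls, and the 12 genes not above the background proxy are the least well measured.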
